A study of Rattus norvegicus with 12 samples.

Results

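The genes described here are 10 immediate early transcription regulators, chosen by symbol from the gene count table: Fos, Fosb, Fosl1, Jun, Junb, Egr1, Egr3, Ier2, Klf4 and Myc. Each symbol matched 1 row of the 32883 genes in the table, and all 10 were among the 14063 genes that passed the filter on low counts. They were followed in cultured heart muscle cells from the ventricles of newborn rats, 2 days after an adenovirus had delivered 1 of 4 cargoes. LacZ, a bacterial gene, was the control cargo; the others were human KAT6A, a histone acetyltransferase, as wild type (WT), as K815R, which resists acetylation at that lysine, or as K815Q, which mimics it. All 4 groups therefore carried adenovirus, and each had 3 libraries. The question behind the design is what KAT6A acetylation does to the growth and mitochondrial metabolism of these cells.

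Immediate early genes are switched on within minutes of a stimulus, from promoters that are already occupied by factors such as serum response factor and CREB, and need no new protein for it. FOS and JUN family proteins pair through leucine zippers to form the AP-1 factor, while EGR proteins and KLF4 bind GC-rich sites through zinc fingers. In heart muscle cells this class of genes is known for its brief response to stretch, adrenergic agonists and other growth stimuli. Libraries made at 2 days record the level of these mRNAs at that time, and no earlier time was sampled. Whether it is a standing level or includes a brief response was not tested.

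As examples, the 250 bases before the start site are given for Egr1 and Ier2. They were chosen because, among the 4 members searched, only their windows held either of 2 sites. These were a CArG box, the site of serum response factor, and a full CRE, the site of CREB. Sequences are from RefSeq, rat build GRCr8. The Egr1 window is chr18:26736828-26737077 on the plus strand, and capitals mark 2 CArG boxes and 2 CRE half-sites (TGACG on either strand).
Egr1: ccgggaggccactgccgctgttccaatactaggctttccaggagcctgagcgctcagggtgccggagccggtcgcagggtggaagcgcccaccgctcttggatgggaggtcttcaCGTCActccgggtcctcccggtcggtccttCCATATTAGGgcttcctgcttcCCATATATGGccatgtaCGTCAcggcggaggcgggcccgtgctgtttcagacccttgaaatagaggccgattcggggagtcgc
The Ier2 window is chr19:40399123-40399372 on the plus strand, and capitals mark the CRE (TGACGTCA), which also contains the half-site on both strands.
Ier2: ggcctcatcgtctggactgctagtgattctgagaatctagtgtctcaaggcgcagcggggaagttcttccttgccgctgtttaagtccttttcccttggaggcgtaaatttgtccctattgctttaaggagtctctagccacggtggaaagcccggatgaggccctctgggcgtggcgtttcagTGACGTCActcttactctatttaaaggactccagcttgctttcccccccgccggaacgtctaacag
The Egr1 CArG boxes begin 105 and 83 bases before the start, and the Ier2 CRE begins 66 bases before it. Of the 4 members with a window that could be searched (Egr1, Fosl1, Ier2 and Junb), 1 held a CArG box, 1 a full CRE and 4 a CRE half-site. Among all 33469 promoter windows of that length, 1.5% held a CArG box, 1.59% a CRE and 18.2% a half-site, each searched on both strands. No AP-1 site (TGANTCA), EGR site (GCGNGGGCG) or E-box (CACGTG) was in these 4 windows, against 6.34%, 4.29% and 5.59% of all windows. Windows inside their own gene were left out for the members but kept in the set of all windows. The 4 member windows held 53.2% to 66.0% GC, beside a median of 51.2% over all windows. A match is a run of letters and not a measured binding site.

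Depth and the label check bear on every value below. Gene counts per library ran from 19102048 to 25451686, and 3 counts, taken here as the floor, corresponded to 0.118 to 0.156 CPM, the unit of all levels here, which scales counts to a common library total by TMM. Kat6a, which checks the labels, averaged 48.1 ± 4.74 CPM under LacZ, 93.0 ± 12.3 under WT and 108 ± 11.6 under K815R (SD, n = 3 each). The group labelled K815Q averaged 46.3 ± 3.35 CPM (SD, n = 3), with no rise over LacZ; reads of the human insert and of the rat gene are not told apart. Those libraries are therefore called the K815Q-labelled libraries, and directions drawn from them depend on that label. Where mutants, mutant groups or mutant libraries are named below, K815Q is meant as labelled only. Prkaa2, which encodes a catalytic subunit of the energy sensor AMPK, was 8.51-fold higher than LacZ in WT (adjusted p 2.51e-05) and 19.2-fold higher in the K815Q-labelled libraries (adjusted p 4.06e-06). In K815R it stood 1.43-fold above LacZ (adjusted p 0.190, edgeR). Its mean level was 60.9 CPM under LacZ, 518 under WT, 87.2 under K815R and 1167 under the label K815Q, so comparisons with the WT or K815Q-labelled libraries also set apart groups that differ in Prkaa2; its part in the results below was not tested. In bulk RNA, fewer cells of a type and less RNA per cell cannot be told apart. Nothing in the labels says that the 3 libraries of a group came from separate cultures, so p-values measure only the spread between these libraries, which may be technical. Unless another tool is named, adjusted p-values come from the quasi-likelihood test of edgeR, adjusted by Benjamini-Hochberg over the 14063 genes, and called means an adjusted p under 0.05.

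Compared with LacZ, 3 of these genes were called: Myc in all 3 comparisons, Egr3 in K815R and in the K815Q-labelled libraries, and Klf4 in the latter. Egr1 stood 2.12-fold to 2.57-fold above LacZ and was not called. The members called were 1 of 10 in WT (5.34% of all genes were called), 2 of 10 in K815R (2.47%) and 3 of 10 in the K815Q-labelled libraries (7.85%), all of them higher. Genes called as higher made up 1.95%, 0.74% and 2.87% of all genes. Whether called or not, 8, 9 and 9 of the 10 had a log2 fold change above 0, beside 52.4%, 51.2% and 51.7% of all genes. An unadjusted p under 0.05 was met by 6 of 10 in each comparison, beside 19.1%, 13.8% and 24.2%. The median log2 fold change of the members was 0.25, 0.26 and 0.30 in the same order, beside 0.01, 0.00 and 0.01 over all genes. These 3 comparisons share the LacZ libraries, so a low LacZ level would enter each of them.

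**Figure D1:**
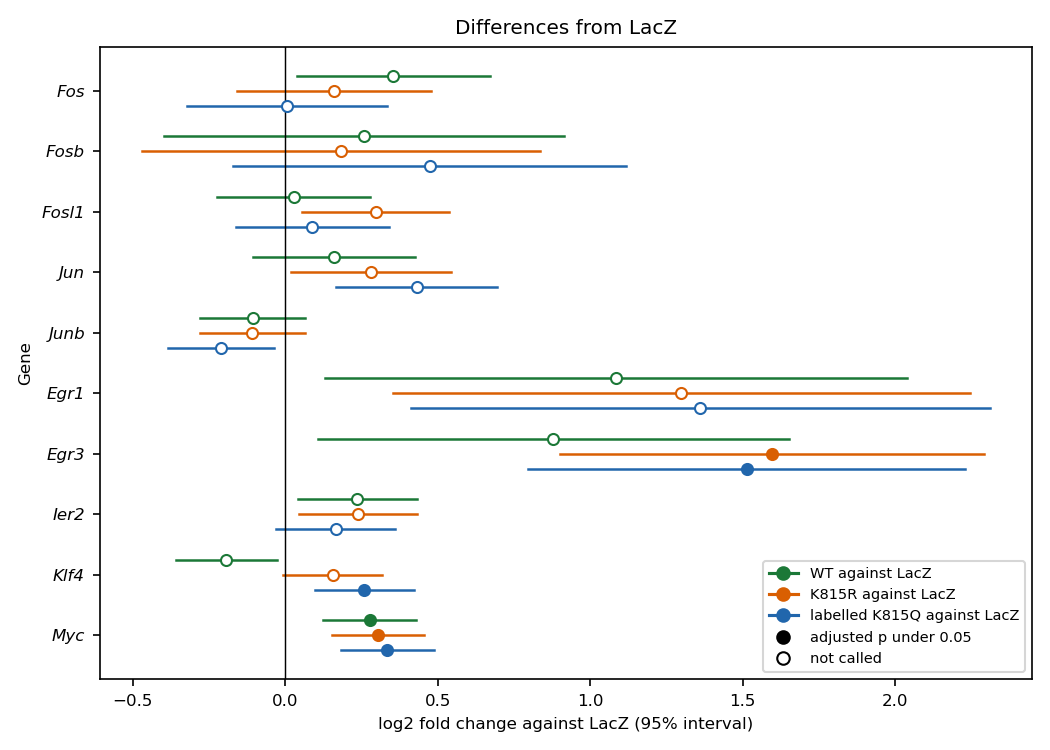
Log2 fold change (horizontal axis) of each of the 10 genes (vertical axis) against LacZ in WT, K815R and the K815Q-labelled libraries, with 95% intervals; filled points were called. Egr1 and Egr3 lie farthest from 0, with Egr1 at 1.08 to 1.36 and wide intervals, and the Myc points lie close together at 0.28 to 0.33 with narrow ones.

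Myc (ENSRNOG00000004500), a bHLH-zipper factor that drives growth and ribosome production, was higher by 1.21-fold to 1.26-fold in each of the other 3 groups than in LacZ. It stood at 19.3, 19.4 and 16.8 CPM in the 3 LacZ libraries, 22.1, 22.4 and 22.8 in WT, 22.0, 23.0 and 23.5 in K815R, with 23.8, 24.6 and 21.7 in the K815Q-labelled libraries. Every LacZ library lay below every one of the 9 others. The log2 fold change against LacZ was 0.28 (SE 0.0736, adjusted p 0.0265) in WT, 0.30 (SE 0.0729, adjusted p 0.0242) in K815R and 0.33 (SE 0.0736, adjusted p 0.00732) in the K815Q-labelled libraries (edgeR). These 3 groups were not told apart: K815R differed from WT by 0.03 (95% interval -0.12 to 0.18), the K815Q-labelled libraries from WT by 0.06 (-0.09 to 0.21), and K815R from the latter by -0.03 (-0.18 to 0.12). The calls rest partly on LacZ replicate 3, the lowest library. Without it the log2 fold changes were 0.21, 0.24 and 0.27 and the adjusted p-values 0.151, 0.147 and 0.0546 (edgeR), so none of the 3 was called.

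Egr3 (ENSRNOG00000017828), a zinc finger factor that other EGR proteins can induce, rose from a very low level, 3.03-fold in K815R and 2.86-fold in the K815Q-labelled libraries. Its counts were 14, 8 and 11 in LacZ, 8, 17 and 27 in WT, 23, 30 and 42 in K815R, with 31, 23 and 24 in the K815Q-labelled libraries. As levels these are 0.586, 0.356 and 0.451 CPM in LacZ, 0.405, 0.878 and 1.28 in WT, 1.18, 1.18 and 1.91 in K815R, with 1.61, 1.17 and 1.25 in the K815Q-labelled libraries. Both mutant groups lay wholly above LacZ, while WT spanned the range from the LacZ level to the mutant level. The log2 fold change against LacZ was 1.60 (SE 0.336, adjusted p 0.00906) in K815R and 1.51 (SE 0.346, adjusted p 0.00942) in the K815Q-labelled libraries (edgeR). In WT it was 0.88 (95% interval 0.11 to 1.65) and was not called (adjusted p 0.187, edgeR). The difference between K815R and WT was 0.72 (0.08 to 1.36) and that between the K815Q-labelled libraries and WT 0.63 (-0.03 to 1.29), with adjusted p of 0.291 and 0.366 (edgeR), so the mutants were not shown to differ from WT. With each of the 6 libraries left out in turn, 4 fits kept the call in K815R and 4 that in the K815Q-labelled libraries. Both calls were lost without LacZ replicate 2 (adjusted p 0.0629 and 0.0559), the first also without K815R replicate 3 (0.0810) and the second without K815Q replicate 1 (0.0728, all edgeR). Under a minimum of 10 counts in every library Egr3 was not tested at all.

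Egr1 (ENSRNOG00000019422), the best known EGR factor and an early target of serum response factor and ERK signalling, varied widely between libraries. It stood at 27.7, 20.8 and 37.4 CPM in LacZ, 39.0, 40.5 and 102 in WT, 64.7, 62.4 and 85.1 in K815R, with 73.3, 88.9 and 59.2 in the K815Q-labelled libraries. All 9 libraries of the other groups lay above the 3 LacZ libraries, the lowest of them by little, and WT replicate 3 held 2.58 times the mean of the other 2 WT libraries. The fitted levels were 2.12-fold, 2.46-fold and 2.57-fold those of LacZ in WT, K815R and the K815Q-labelled libraries. On the log2 scale the differences were 1.08 (SE 0.416, adjusted p 0.199), 1.30 (SE 0.412, adjusted p 0.193) and 1.36 (SE 0.413, adjusted p 0.0865), none of them called (edgeR).

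Whether Egr1 was called depended on the libraries in the fit and on the tool. When WT replicate 3 was left out, a step chosen after seeing its value, the K815R and labelled K815Q log2 fold changes were again 1.30 and 1.36. Their adjusted p-values were then 0.0447 and 0.0210 (edgeR), so both were called. WT itself then stood 0.47 above LacZ (adjusted p 0.472, edgeR). For K815R and the K815Q-labelled libraries against LacZ, fits of only the 6 libraries compared also lacked WT replicate 3 and called neither. Their adjusted p-values were 0.144 and 0.0733 (edgeR). DESeq2 on all 12 libraries called Egr1 in K815R (adjusted p 0.0470) and in the K815Q-labelled libraries (adjusted p 0.0140), and not in WT (adjusted p 0.105). Among these groups, K815R exceeded WT by 0.22 (95% interval -0.69 to 1.12) and lay 0.06 below the K815Q-labelled libraries, as a difference of -0.06 (-0.96 to 0.83). Differences of nearly 2-fold either way between K815R and the labelled K815Q libraries thus lie within the interval.

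**Figure D2:**
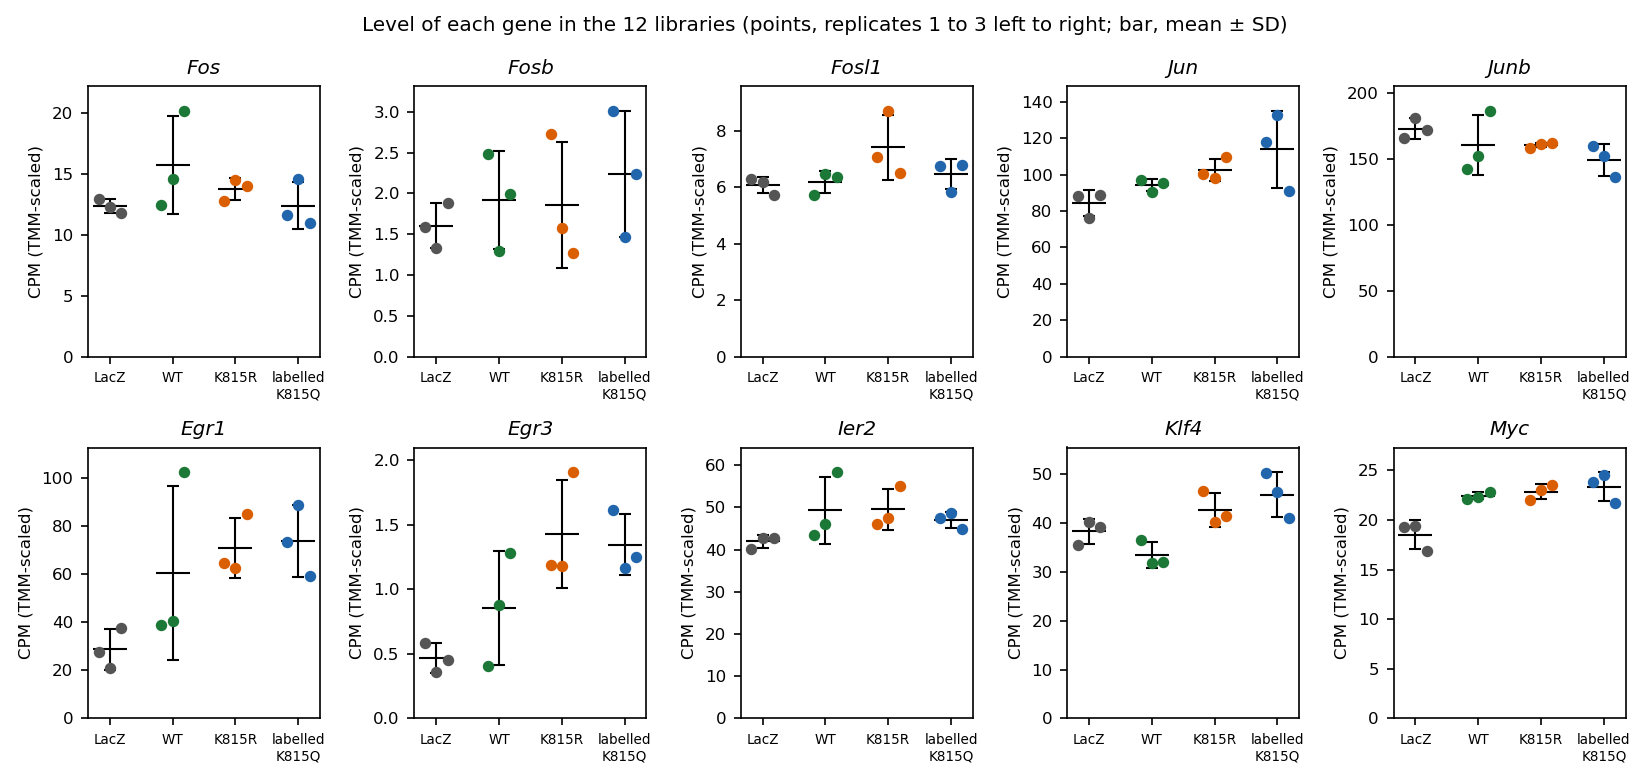
Level in TMM-scaled CPM (vertical axes, from 0) of each gene in the 12 libraries, by group as labelled; points are libraries and bars give mean ± SD of 3. In the Egr1 panel WT replicate 3, at 102 CPM, stands above all others, and in the Klf4 panel WT is the lowest group.

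Klf4 (ENSRNOG00000016299), a Krüppel-like zinc finger factor known for restraining proliferation and for its part in reprogramming, was lower in WT than in K815R and in the K815Q-labelled libraries. Its levels were 35.5, 40.3 and 39.3 CPM in LacZ, 36.6, 31.9 and 32.1 in WT, 46.7, 40.2 and 41.4 in K815R, with 50.2, 46.3 and 41.1 in the K815Q-labelled libraries. All 3 WT libraries lay below all 6 mutant libraries, and LacZ lay between, overlapping WT and K815R. The K815Q-labelled libraries lay above WT by 0.45 on the log2 scale (SE 0.0799, adjusted p 0.00517), and K815R lay above WT by 0.35 (SE 0.0796, adjusted p 0.0240, edgeR). The K815Q-labelled libraries also exceeded LacZ, by 0.26 (SE 0.0782, adjusted p 0.0453), while K815R did not pass the test (0.16, adjusted p 0.395, edgeR). WT stood 0.19 below LacZ as a log2 fold change of -0.19 (95% interval -0.36 to -0.03, adjusted p 0.177, edgeR), which was not called.

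The difference of Klf4 between the K815Q-labelled libraries and WT was called in each of the 6 fits made with 1 of its libraries left out, with log2 fold changes of 0.38 to 0.53. The call between K815R and WT was kept in 2 of 6 such fits (0.28 to 0.42) and was lost without WT replicate 2 or 3 or K815R replicate 1 or 3, with adjusted p of 0.115, 0.110, 0.121 and 0.0538 (edgeR). The call between the K815Q-labelled libraries and LacZ was kept in 1 of 6 (0.19 to 0.33). Without K815Q replicate 1 it was 0.19 (adjusted p 0.246, edgeR). It was lost as well without LacZ replicate 1, 2 or 3 and without K815Q replicate 2, with adjusted p of 0.144, 0.0780, 0.106 and 0.0925 (edgeR), and without WT replicate 3 (0.0549, edgeR).

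With the settings used throughout, no member other than Klf4 was called between groups outside LacZ. In K815R against WT, 1 of 10 members was called, beside 2.2% of all genes, and in the K815Q-labelled libraries against WT 1 of 10, beside 1.07%. In K815R against the K815Q-labelled libraries, edgeR called 0 of 10, beside 0.363% of all genes. There 0 of 10 members had an unadjusted p under 0.05 with edgeR, beside 11.4% of all genes, and DESeq2 called 0. The log2 differences there ran from -0.29 for Fosb to 0.21 for Fosl1, with intervals of -0.93 to 0.35 and -0.04 to 0.45. For Klf4 the difference between the mutants was -0.10 (-0.27 to 0.06).

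Of the 5 AP-1 genes, edgeR with TMM scaling and the filter used throughout called 0 in each comparison over all 12 libraries. DESeq2 called Jun alone among them, in the K815Q-labelled libraries against LacZ and for any difference among the groups. The log2 fold changes against LacZ ran from -0.21 for Junb to 0.47 for Fosb. Jun (ENSRNOG00000026293), which encodes the JUN subunit, stood at 88.3, 76.2 and 88.6 CPM in LacZ, 96.9, 90.3 and 95.5 in WT, 100.3, 98.0 and 109 in K815R, with 118, 133 and 90.7 in the K815Q-labelled libraries. Every LacZ library lay below the 9 others. The log2 fold change against LacZ was 0.16 (SE 0.119, adjusted p 0.538) in WT, 0.28 (SE 0.119, adjusted p 0.324) in K815R and 0.43 (SE 0.119, adjusted p 0.0545) in the K815Q-labelled libraries (edgeR). The last lay close to the threshold: upper-quartile scaling (adjusted p 0.0452), the stricter filter (0.0473, both edgeR) and DESeq2 (4.92e-04) each called it. K815Q replicate 3 was the low library of its group, and without it the value was 0.57 (adjusted p 9.30e-05, edgeR). The K815R value was called (adjusted p 0.0291, edgeR) when LacZ and K815R alone entered the fit. Against WT, the K815Q-labelled libraries stood at 0.27 (adjusted p 0.336), and without K815Q replicate 3 at 0.41 (adjusted p 0.00622, edgeR).

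Junb (ENSRNOG00000042838), a JUN relative that can restrain JUN activity, had log2 fold changes below 0 in all 3 comparisons with LacZ. It stood at 166, 181 and 172 CPM in LacZ, 143, 153 and 187 in WT, 159, 161 and 162 in K815R, with 160.1, 152 and 136 in the K815Q-labelled libraries. Both mutant groups lay wholly below LacZ, and WT overlapped it through replicate 3. The log2 fold changes against LacZ were -0.11, -0.11 and -0.21 in WT, K815R and the K815Q-labelled libraries, with adjusted p of 0.535, 0.620 and 0.124 (edgeR). Without WT replicate 3, Junb was called as lower than LacZ in WT (-0.23, adjusted p 0.0481) and in the K815Q-labelled libraries (-0.21, adjusted p 0.0284, edgeR). The latter was called as well when no other groups entered the fit (adjusted p 0.0345) and without a filter on low counts (adjusted p 0.0130, both edgeR).

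The FOS proteins cannot pair with themselves and need a JUN partner. Fos (ENSRNOG00000008015) stood at 13.0, 12.3 and 11.8 CPM in LacZ, 12.5, 14.6 and 20.2 in WT, 12.8, 14.5 and 14.0 in K815R, with 11.6, 14.6 and 11.0 in the K815Q-labelled libraries. The groups overlapped throughout, apart from the high WT replicate 3, and the log2 fold changes against LacZ were 0.35, 0.16 and 0.01 (adjusted p 0.200, 0.711 and 0.987, edgeR). Without WT replicate 1 the first was 0.50 (adjusted p 0.0348), and without WT replicate 3 it was 0.13 (adjusted p 0.620, edgeR).

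Fosl1 (ENSRNOG00000020552), which encodes FRA-1, stood between 5.73 and 8.71 CPM in all libraries. Its K815R libraries, at 7.05, 8.71 and 6.49 CPM, lay above the LacZ range of 5.73 to 6.28 (log2 fold change 0.30, SE 0.116, adjusted p 0.223, edgeR). Fosb (ENSRNOG00000046667) was the second lowest member in counts, with 25 to 58 per library. Its intervals against LacZ were wide, from -0.47 to 0.83 in K815R and -0.17 to 1.12 in the K815Q-labelled libraries, so a 2-fold rise in the latter lies within its interval.

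Ier2 (ENSRNOG00000054344), a short-lived nuclear protein induced with the AP-1 genes, stood at 40.2, 42.7 and 42.8 CPM in LacZ, 43.5, 46.2 and 58.4 in WT, 46.1, 47.4 and 55.0 in K815R, with 47.4, 48.8 and 44.9 in the K815Q-labelled libraries. The 3 LacZ libraries were the lowest of the 12. The log2 fold changes against LacZ were 0.24 (SE 0.0918), 0.24 (SE 0.0913) and 0.17 (SE 0.0924), with adjusted p of 0.162, 0.225 and 0.287 (edgeR). Without a filter on low counts, the first 2 were called (adjusted p 0.0295 and 0.0278, edgeR). Without WT replicate 3 the WT value was 0.10 (adjusted p 0.564, edgeR).

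Several members thus stood apart from LacZ with no overlap between libraries without being called. Higher with no overlap were 4 of 10 members in WT (12.3% of all genes), 6 of 10 in K815R (9.11%) and 6 of 10 in the K815Q-labelled libraries (13.9%). Lower with no overlap were 0, 1 and 1 of 10, the 1 being Junb, beside 12.3%, 9.6% and 14.5% of all genes. Jun, Egr1, Ier2 and Myc were higher with no overlap in all 3 comparisons, which share the LacZ libraries.

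Several members were high together in WT replicate 3. It was the highest of the 12 libraries for 4 members, Fos, Junb, Egr1 and Ier2, and for 9.75% of all genes tested. For 5 of 10 members, these 4 and Egr3, it exceeded the mean of the other WT libraries by more than 1.2 times, as it did for 8.31% of all genes. The excess was 2.58 times for Egr1, 2.00 for Egr3, 1.49 for Fos, 1.30 for Ier2 and 1.26 for Junb. For Myc, Jun, Fosl1 and Fosb the ratio lay between 1.02 and 1.06, and for Klf4 it was 0.937. At the other end, LacZ replicate 2 was the lowest of the 12 for Jun, Egr1 and Egr3.

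**Figure D3:**
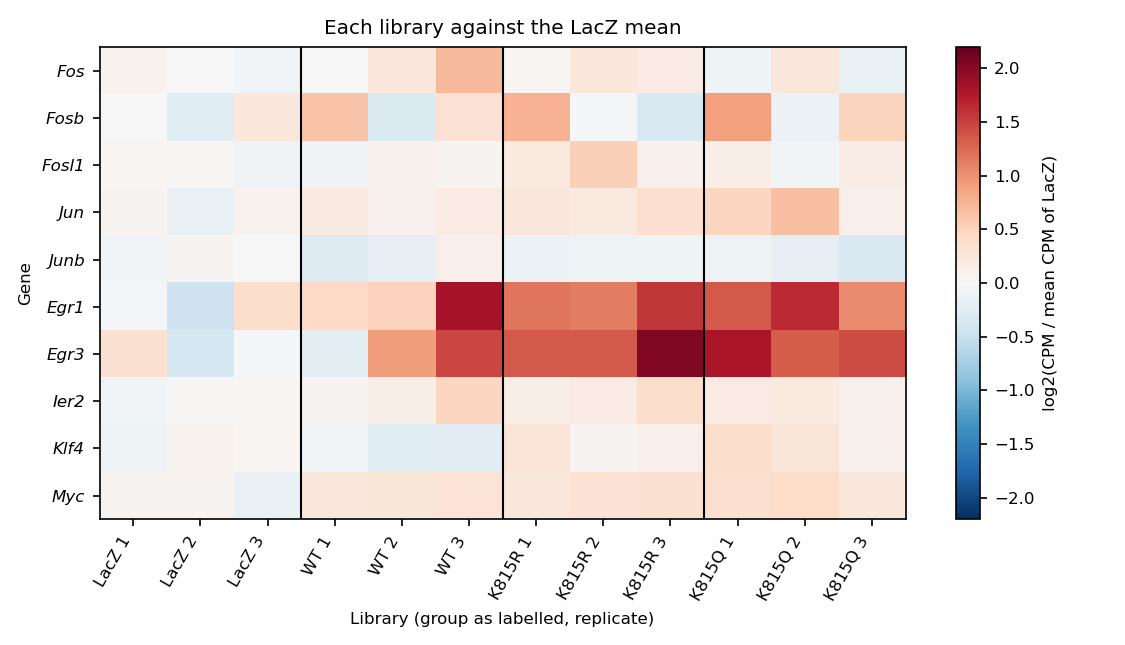
Log2 ratio of each library's CPM to the mean CPM of LacZ (colour scale) for the 10 genes (rows) in the 12 libraries (columns, by group as labelled). WT replicate 3 is darker than the other WT libraries for Egr1, Egr3, Fos and Ier2, while Myc is even across the 9 libraries outside LacZ and Klf4 is pale blue in WT replicates 2 and 3.

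Several calls rested on single libraries, so the adjusted p was followed as each was left out. Of the 8 calls of members in these 6 comparisons, that of Klf4 between the K815Q-labelled libraries and WT was kept in all 6 fits, and that of Myc in the K815Q-labelled libraries against LacZ in 5 of 6. Myc was called in 2 of 6 fits in WT and 3 of 6 in K815R.

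**Figure D4:**
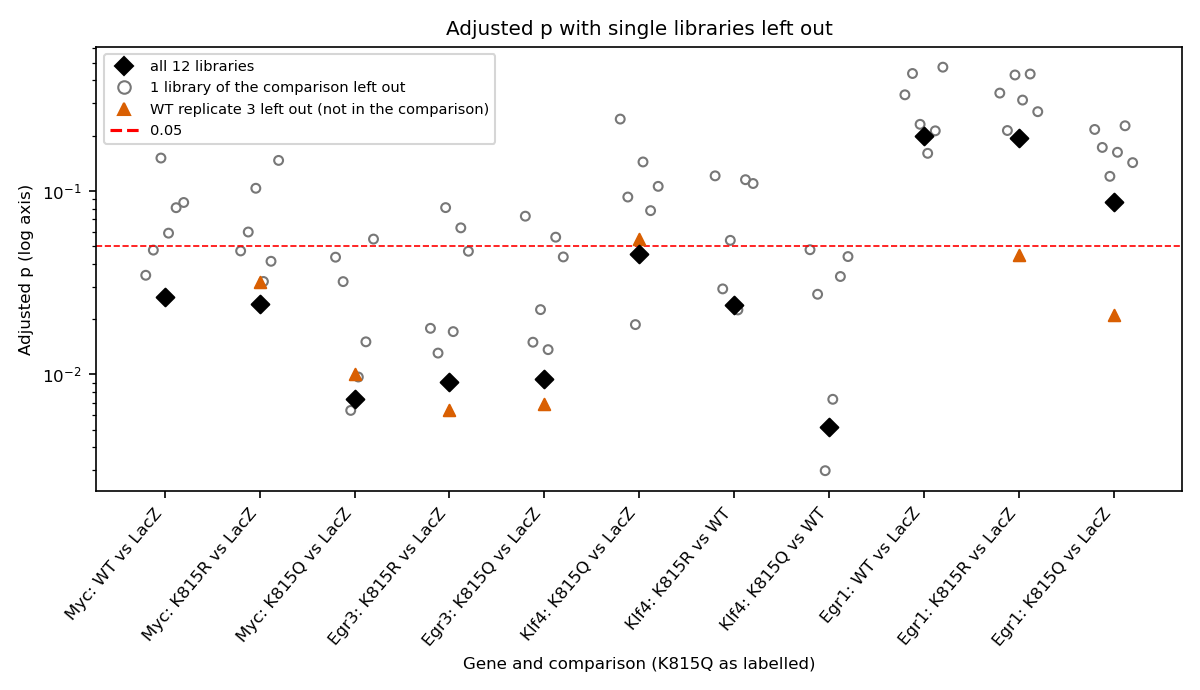
Adjusted p (vertical log axis, edgeR) for the 8 calls of Myc, Egr3 and Klf4 and for Egr1 against LacZ, with all 12 libraries (diamonds), with each library of the comparison left out (circles) and, for comparisons with no WT library, without WT replicate 3 (triangles). The Egr1 triangles for K815R and labelled K815Q lie at 0.0447 and 0.0210, below the dashed line at 0.05, while the diamonds lie at 0.193 and 0.0865.

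Relatives and regulators of these genes were then examined as lists. The counts of each list stand beside 5.34%, 2.47% and 7.85% of all genes called against LacZ in WT, K815R and the K815Q-labelled libraries. Among 15 tested EGR and KLF relatives and EGR corepressors, 1 was called as higher in K815R against LacZ and 1 in the K815Q-labelled libraries, in both cases Klf2, and 1 as lower in WT, Nab2. The list's median log2 fold changes against LacZ were 0.06, 0.07 and 0.10 in WT, K815R and the K815Q-labelled libraries, beside 0.01, 0.00 and 0.01 over all genes. Klf2, a close relative of Klf4 best known from endothelium, stood at 9.04, 10.2 and 8.27 CPM in LacZ, 10.0, 10.2 and 10.6 in WT, 13.1, 12.9 and 14.7 in K815R, with 14.8, 14.6 and 14.8 in the K815Q-labelled libraries. Both mutant groups lay wholly above LacZ and WT. The log2 fold change was 0.57 in K815R and 0.69 in the K815Q-labelled libraries against LacZ (adjusted p 6.66e-04 and 4.80e-05), and 0.40 and 0.52 against WT (adjusted p 0.0223 and 0.00456, edgeR). Nab2, a corepressor that binds EGR proteins, was lower in WT than in LacZ (-0.22, adjusted p 0.0313) and higher in the K815Q-labelled libraries than in WT (0.26, adjusted p 0.0379, edgeR).

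Among 37 other immediate early genes tested, edgeR called 2 against LacZ in WT, both lower, and 2 in K815R, both higher. In the K815Q-labelled libraries it called 3 as higher and 4 as lower. Of all genes, 5.34% were called in WT, 2.47% in K815R and 7.85% in the K815Q-labelled libraries. The 2 lower in WT, Sik1 and Btg2, and Rhob, higher in the K815Q-labelled libraries, fall outside the naming rule and were picked out after their values were seen. The medians were 0.00, 0.02 and -0.02 on the log2 scale. Errfi1, which encodes an inhibitor of the EGF receptor, rose in K815R (0.33, adjusted p 0.00796) and in the K815Q-labelled libraries (0.40, adjusted p 7.47e-04, edgeR). Id1, an inhibitor of bHLH factors, rose in the same groups (0.47 and 0.55, adjusted p 0.0346 and 0.00867, edgeR). Zfp36, which encodes a protein that speeds decay of AU-rich mRNAs, many early gene mRNAs among them, fell in the K815Q-labelled libraries by 0.50 on the log2 scale (adjusted p 7.52e-04, edgeR). Bhlhe40, a repressor of the clock pathway, fell there by 0.35 on the log2 scale (adjusted p 0.00552, edgeR).

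The 16 tested ERK feedback genes, whose products damp the pathway that induces several members, gave no call in WT against LacZ, 1 higher in K815R, and 1 higher and 1 lower in the K815Q-labelled libraries. Their medians against LacZ were 0.00, 0.09 and 0.03 on the log2 scale. Dusp4, a phosphatase acting on ERK, rose in K815R over LacZ (0.29, adjusted p 0.00389) and over the K815Q-labelled libraries (0.44, adjusted p 2.63e-04, edgeR). Spry4, an inhibitor of receptor tyrosine kinase signalling, fell in the K815Q-labelled libraries by 0.43 on the log2 scale against LacZ (adjusted p 6.92e-04), while Spry2 rose there (0.26, adjusted p 0.0162, edgeR). Etv4, an ETS factor downstream of ERK, was raised in K815R relative to WT (0.34, adjusted p 0.0362, edgeR).

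Few partners and upstream factors were called. Of 13 tested AP-1 partners, 1 was called against LacZ, Jdp2, a bZIP protein that represses AP-1 sites, in the K815Q-labelled libraries (0.26, adjusted p 0.0297, edgeR). Of 10 tested genes of the MYC network, none was called in WT. Mxi1 was higher in K815R (0.23, adjusted p 0.0233), and Mxd1 and Mnt were higher in the K815Q-labelled libraries (0.24 and 0.23, adjusted p 0.0383 and 0.0255, edgeR). All 3 encode partners of MAX that oppose MYC at its target sites. Of 22 tested genes for SRF, its cofactors, CREB and the kinases above them, none was called in WT or K815R against LacZ. Rps6ka3, which encodes the kinase RSK2, was lower in the K815Q-labelled libraries than in LacZ (-0.20, adjusted p 0.0390, edgeR).

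Genes with a pattern like those of the 3 members called by the test for any difference among the 4 groups (Egr3, Klf4 and Myc, 3 of 10 members beside 8.13% of all genes) were sought among 10253 genes of at least 5 CPM. Likeness was Pearson's r of log2 CPM over the 12 libraries and is given as a description. For Egr3 the most alike were Egr2 (0.90), Hyi (0.90) and RGD1309779 (0.89), for Klf4 Rxylt1 (0.96), Cdk11b (0.93) and Dpm1 (0.91), and for Myc Lims2 (0.90), Commd4 (0.90) and Dap (0.90). Egr2, another EGR factor, stood at 4.73, 2.98 and 3.85 CPM in LacZ, 4.71, 5.53 and 9.69 in WT, 6.18, 5.55 and 10.3 in K815R, with 9.97, 9.49 and 6.98 in the K815Q-labelled libraries. As with Egr1 and Egr3, its WT replicate 3 was the highest WT library, a match that the search over these same libraries favours. The log2 fold changes of Egr2 against LacZ were 0.79, 0.92 and 1.19, none called (adjusted p 0.282, 0.286 and 0.0745, edgeR).

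Immediate early genes are expressed in many cell types, so markers of other cells in the culture are given beside them. The 8 cardiomyocyte markers, with none at 0, summed to 38938 to 41361 CPM in LacZ and 40916 to 41608 in WT. In K815R they gave 43031 to 43882, above every library of the other groups, and in the K815Q-labelled libraries 39376 to 41495. Of the 8, only Myh7 was called. On the log2 scale its K815R level exceeded WT by 0.37 (adjusted p 0.0388) and the K815Q-labelled libraries by 0.48 (adjusted p 0.0281, edgeR). Against LacZ the K815R value was 0.32 (adjusted p 0.0723, edgeR), not called. In K815R against WT, 4 of the 8 markers had a log2 fold change above 0 and 4 below. In K815R against the K815Q-labelled libraries 5 were above 0 and 3 below, and against LacZ 7 above and 1 below. The part of these 8 markers in the results above was not tested. The 9 macrophage and leukocyte markers, all detected in each group, summed to 71.5 to 91.5 CPM in LacZ, 93.6 to 99.8 in WT, 93.6 to 101 in K815R and 96.8 to 106 in the K815Q-labelled libraries. LacZ replicate 2 held the lowest sum. Of the 9, Lyz2 was called as higher in WT, K815R and the K815Q-labelled libraries (0.33, 0.33 and 0.48, adjusted p 0.0173, 0.0283 and 7.14e-04, edgeR). These markers moved with the division between LacZ and the other groups that Myc, Egr1, Jun and Ier2 also showed, and their part in those results was not tested. The 8 fibroblast markers, again with none at 0, summed to 11811 to 12678 CPM in LacZ, 10954 to 12005 in WT, 11056 to 11503 in K815R and 11906 to 12795 in the K815Q-labelled libraries. Single fibroblast markers did change. Pdgfra, a growth factor receptor of fibroblasts, was lower in WT than in LacZ (-0.36, adjusted p 0.00109), and higher than WT in K815R (0.54, adjusted p 7.63e-05) and in the K815Q-labelled libraries (0.30, adjusted p 0.0189, edgeR). Its WT libraries were the lowest of the 12, as all 3 WT libraries lay below the mutants for Klf4, and its part in the Klf4 result was not tested. Postn, a matrix protein gene, was higher than LacZ in WT (0.35, adjusted p 0.00104) and in the K815Q-labelled libraries (0.20, adjusted p 0.0421, edgeR). Opposite in sign to Pdgfra, Postn was lower in K815R than in WT (-0.36, adjusted p 0.00226, edgeR). Of the 8 fibroblast markers, 6 had a log2 fold change above 0 in K815R against WT and 2 below. Tcf21, a fibroblast lineage factor, was higher than LacZ in the K815Q-labelled libraries (0.53, adjusted p 0.00236, edgeR). Against LacZ, 4 of the 8 were above 0 and 4 below in the K815Q-labelled libraries. In WT against LacZ, 3 were above 0 and 5 below. The 7 endothelial markers summed to 171 to 192, 171 to 217, 184 to 211 and 145 to 199 CPM in the same order, with none at 0 and with overlap between every pair of groups. Smooth muscle and pericyte markers (8, none at 0) summed to 6962 to 7417 CPM in LacZ and 6829 to 7051 in WT. Their sums were 7311 to 7680 in K815R and 6806 to 7158 in the K815Q-labelled libraries. Of these 8, Pdgfrb was called as higher in the K815Q-labelled libraries than in LacZ (0.21, adjusted p 0.0410, edgeR). In that comparison 3 of the 8 had a log2 fold change above 0 and 5 below.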

How the data were processed

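Poly(A) RNA was sequenced from 12 libraries in 4 groups of 3; group and replicate number come from the sample titles. The authors deposited raw read counts per Ensembl rat gene in 1 table. Trimmomatic 0.39, HISAT2 2.2.1, HTSeq 0.6.1, edgeR and the build Rnor_6.0 are named in the submitters' processing notes; the strand setting is not given in the sources used here. Its 5 closing counter lines name no gene and stayed out of library sizes and tests: 11.7% to 12.9% of reads lay in no feature, 25.6% to 26.9% aligned to several places, 2.69% to 3.06% were unaligned and 0.461% to 0.50% ambiguous. Libraries of 1 group differed beyond sampling noise (chi-square per degree of freedom 4.78 to 9.29), and each counted as 1 replicate. Such a spread does not show that the libraries came from separate cultures.

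Counts were scaled by TMM and filtered with filterByExpr (minimum count 10, minimum total 15). They were tested in edgeR 4.0.16 (R 4.3.3) by the robust quasi-likelihood test fitting 1 mean per group to all 12 libraries together, with Benjamini-Hochberg adjustment over 14063 genes. The 6 pairwise comparisons and a test of any difference were made. Log2 CPM used a prior count of 2. The procedure was tested on simulated data. As alternatives, scaling was changed to RLE or upper quartile, the filter was dropped or raised to 10 counts per library, DESeq2 1.42.0 replaced edgeR, a replicate block was added, the fit was limited to the 6 libraries compared, and single libraries were left out. Leaving out WT replicate 3 in comparisons without WT was added after seeing the data.

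All 10 members are named. Of the other lists, up to 4 genes per list with a mean of at least 5 CPM and a call were eligible, by largest log2 fold change, and the 3 genes most like each member called by the test of any difference. The members and lists were chosen with earlier results of these data known. Promoter windows are from RefSeq (GRCr8): 6 of 10 members matched, and 2 of these windows lay inside the member's own annotated gene and were not searched. Levels are not compared between genes, as no transcript lengths were used. Part of the result for the list of upstream factors is not reported here.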

Additional observations from a re-analysis of the deposited data

How the results depend on the processing

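Of 802 values of the 10 genes under the alternatives, over 60 results, 730 kept their direction and their side of the threshold, 22 kept direction but lost the call, 17 gained one and 33 changed sign; the cause was not tested. Scaling moved the median of all genes by less than 0.02 on the log2 scale. Junb in K815R against WT was 0.0024 with RLE, 0.0014 with upper-quartile scaling, 0.0053 without a filter, 0.0010 with the stricter filter, 0.0025 with DESeq2, 0.00019 with the replicate block and 0.0010 in the fit of 6 libraries. Fos in K815Q-labelled libraries against LacZ was -0.00054 without a filter. With single libraries left out, the log2 fold change against LacZ ran from -0.015 to 0.079 for Fosl1 in WT, -0.17 to 0.39 for Fosb in K815R and -0.129 to 0.086 for Fos in the K815Q-labelled libraries. In K815R against WT it ran from -0.34 to 0.029 for Fos, -0.43 to 0.15 for Fosb, -0.080 to 0.12 for Junb, -0.021 to 0.83 for Egr1 and -0.079 to 0.14 for Ier2. In K815Q-labelled libraries against WT it ran from -0.056 to 0.45 for Fosb, -0.18 to 0.018 for Junb and -0.15 to 0.070 for Ier2. In K815R against the K815Q-labelled libraries it ran from -0.22 to 0.095 for Egr1, -0.18 to 0.24 for Egr3, -0.0073 to 0.12 for Ier2 and -0.081 to 0.0071 for Myc.

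Without a filter, genes called numbered 600 in K815R against LacZ, 553 in K815R against WT, 423 in K815Q-labelled libraries against WT, 307 between the mutants and 2036 for any difference, and 2 members were called in WT against LacZ. The main counts were 348, 309, 151, 51, 1143 and 1. With the stricter filter 1 member was called in K815R against LacZ, since Egr3 was not tested. DESeq2 called 105 genes between the mutants, and 5 members for any difference. The fit of 6 libraries called 85 genes between the mutants. Leaving out single libraries gave, for WT, K815R and K815Q-labelled libraries against LacZ, 0 to 1, 0 to 3 and 1 to 4 members and 378 to 639, 173 to 348 and 359 to 1182 genes. It gave 2 to 4 members and 650 to 1309 genes for any difference, 0 to 1 members and 124 to 177 genes for K815R against WT, 1 to 2 and 50 to 146 for K815Q-labelled libraries against WT, and 0 members and 11 to 98 genes between the mutants. Egr3 had no adjusted p from DESeq2 in K815Q-labelled libraries against LacZ.

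Libraries with the same replicate number did not deviate together (r -0.127 to 0.122, over 0.1 in 1 of 18 pairs), and 5 of 12 correlated best with a library of their own number. The replicate block called 232 genes in K815Q-labelled libraries against WT and 86 between the mutants, and it changed no call of a member. Depth limits Egr3 and Fosb most, with as few as 8 and 25 counts in a library.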
